A study of Mus musculus with 48 samples.

Results

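The genes described here are 10 transcription factor genes that direct the formation of mesoderm and endoderm: Eomes, Mixl1, Mesp1, Tbx6, Hand1, Gsc, Gata4, Gata6, Sox17 and Foxa2. They were chosen by name out of 21887 protein-coding genes, and every peak within 50 kb of their spans was collected. That gave 1438 of the 1444924 peaks in the series. The cells were mouse embryonic stem cells (E14Tg2a, strain 129/Ola) in which endogenous CTCF can be degraded through an auxin-inducible degron and a Ctcf transgene can be switched on with doxycycline. The transgene was wild type (WT) or carried 1 of 9 single amino acid changes: R339Q, R342C, S354F or K365T, R377C or R377H at the same arginine, and Q418R, R448Q or H455R. All groups received 500 µM indole-3-acetic acid (IAA) and doxycycline at 1 µg/ml for 2 days, except an untreated WT group that was used for the CTCF antibody. The cells were grown without feeders in serum with leukemia inhibitory factor, CHIR99021 and PD0325901, so all groups describe undifferentiated culture conditions and none describes mesoderm or endoderm. Peak lists hold no expression values, so the cell type could not be checked against markers, and how much endogenous CTCF was left was not measured. The labels speak of clones, but not of how many clones stand behind a genotype.

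ChIPmentation, in which a transposase tags chromatin during immunoprecipitation, gave 22 peak lists: 10 for FLAG, which marks the transgene protein, 10 for SMC3, a cohesin subunit, and 2 for CTCF itself in untreated and treated WT cells. Each list pools 2 replicates. There is therefore 1 value per group, no spread between replicates and no test between genotypes, and a peak missing from 1 list cannot be told apart from a peak that a repeat of the same genotype would also miss. Depth is unknown. The FLAG lists held from 3855 peaks (H455R) to 30462 (R377C), with 15392 in WT, and the SMC3 lists from 42030 (Q418R) to 153647 (R448Q), with 71962 in WT. Peaks near the 10 genes made up 0.0683% to 0.134% of a list. The strength of a peak is given as its percentile by the authors' value within its own list, where 100 is the strongest, and is not compared in size between lists. Intervals are exact (Clopper-Pearson) 95% binomial intervals, which cover counting error only.

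CTCF is a zinc finger protein that binds a long DNA motif and halts cohesin, the ring-shaped complex that extrudes chromatin loops. Where it stops cohesin, it can set the borders between a gene and the enhancers around it. In the early embryo Nodal and Wnt signals switch on the T-box and homeobox factors Eomes, Mixl1 and Gsc in the primitive streak. Mesp1, Tbx6 and Hand1 then act in mesoderm, and Gata4, Gata6, Sox17 and Foxa2 in endoderm. Embryonic stem cells hold these genes silent or low until differentiation.

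Promoter windows, the 250 bases before a transcription start, were taken from RefSeq (GRCm38.p6, the assembly that mm10 names), and 32851 windows were set against the peak lists. The 3 windows below are examples: Gm33460 is shown for its WT FLAG site, Tbx6 and Mesp1 for a weak and a strong untreated CTCF antibody peak. Capitals mark the bases under the untreated CTCF antibody peak, and positions are counted from 1 at the 5′ end. Gm33460 is a lncRNA gene beside Eomes. Its window (chr9:118489780-118490029, minus strand) lies in the nearest WT FLAG site to Eomes, and all 250 bases lie under the antibody peak. In the window of Tbx6 (chr7:126781233-126781482, plus strand) the peak covers 127 bases, positions 1 to 127. In the window of Mesp1 (chr7:79793591-79793840, minus strand) it covers 213 bases, positions 38 to 250.
Gm33460: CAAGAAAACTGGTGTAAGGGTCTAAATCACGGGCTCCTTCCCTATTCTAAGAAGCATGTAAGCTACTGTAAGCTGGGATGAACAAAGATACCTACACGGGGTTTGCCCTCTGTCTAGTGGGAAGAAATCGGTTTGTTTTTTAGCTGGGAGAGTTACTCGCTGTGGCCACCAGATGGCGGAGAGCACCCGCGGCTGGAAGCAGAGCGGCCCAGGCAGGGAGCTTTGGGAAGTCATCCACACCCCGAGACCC
Tbx6: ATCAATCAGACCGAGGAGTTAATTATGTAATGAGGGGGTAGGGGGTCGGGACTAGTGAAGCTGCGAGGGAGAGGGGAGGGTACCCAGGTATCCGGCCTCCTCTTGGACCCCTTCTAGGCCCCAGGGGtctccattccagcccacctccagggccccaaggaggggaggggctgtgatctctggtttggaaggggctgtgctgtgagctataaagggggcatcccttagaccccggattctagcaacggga
Mesp1: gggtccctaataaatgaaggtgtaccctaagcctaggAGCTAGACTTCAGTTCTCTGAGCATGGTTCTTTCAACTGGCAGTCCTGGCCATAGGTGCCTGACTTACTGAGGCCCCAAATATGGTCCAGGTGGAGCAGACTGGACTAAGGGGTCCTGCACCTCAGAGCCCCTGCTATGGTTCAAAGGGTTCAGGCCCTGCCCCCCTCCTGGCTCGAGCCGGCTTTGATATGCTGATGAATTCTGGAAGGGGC

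The Gm33460 window overlapped FLAG peaks of WT, R339Q, R342C, S354F, K365T and R377C and SMC3 peaks of all 10 genotypes. The Tbx6 and Mesp1 windows overlapped no FLAG peak in any genotype. At Tbx6 the untreated CTCF antibody list had a weak peak (percentile 17.6), and at Mesp1 a very strong one (percentile 99.3), and the treated list had none at either window. This holds for the windows only. Inside Mesp1, outside its window, a site described below overlapped strong peaks of both CTCF antibody lists (99.3 untreated, 95.8 treated). At Gm33460 both CTCF antibody peaks were strong (96.3 untreated, 98.2 treated). Of the 10 genes 5 had windows in the table, 7 windows in all, of Eomes, Mesp1, Tbx6, Gsc and Foxa2. None of the 7 overlapped a FLAG peak of any genotype, 3 overlapped an untreated CTCF antibody peak (Eomes, Mesp1 and Tbx6) and 0 a treated one. Over all windows of the table, 9.27% overlapped a FLAG peak of any genotype, 2.16% a WT FLAG peak, 19.8% an untreated CTCF antibody peak and 14% a treated one, so 7 windows are too few to set these genes apart.

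The WT FLAG list had 20 sites within 50 kb of the 10 genes, at 9 of the 10, where 63.3% of all protein-coding genes have a WT FLAG site at this distance. Gsc had 4 sites, Mesp1, Tbx6 and Hand1 had 3 each, Eomes and Gata4 2 each, and Mixl1, Gata6 and Foxa2 1 each, whereas Sox17 had 0. The median over all protein-coding genes was 1 site. Only 1 of the 20 sites lay within the span of its gene, the second site of Gata4, and 8 lay within 10 kb. Over all pairs of a protein-coding gene and a WT FLAG site within 50 kb of it, 22.1% had the site in the span and 40.2% within 10 kb, and gene length was not matched. The sites had a median WT percentile of 62 (range 10.7 to 96.2). Of the 20, 19 overlapped an untreated CTCF antibody peak (91.2% of all WT FLAG sites do) and 19 a treated one (91.1%), and 18 overlapped a WT SMC3 peak (81.2%). The exception in both CTCF lists was the same site, the only one near Gata6.

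**Figure D1:**
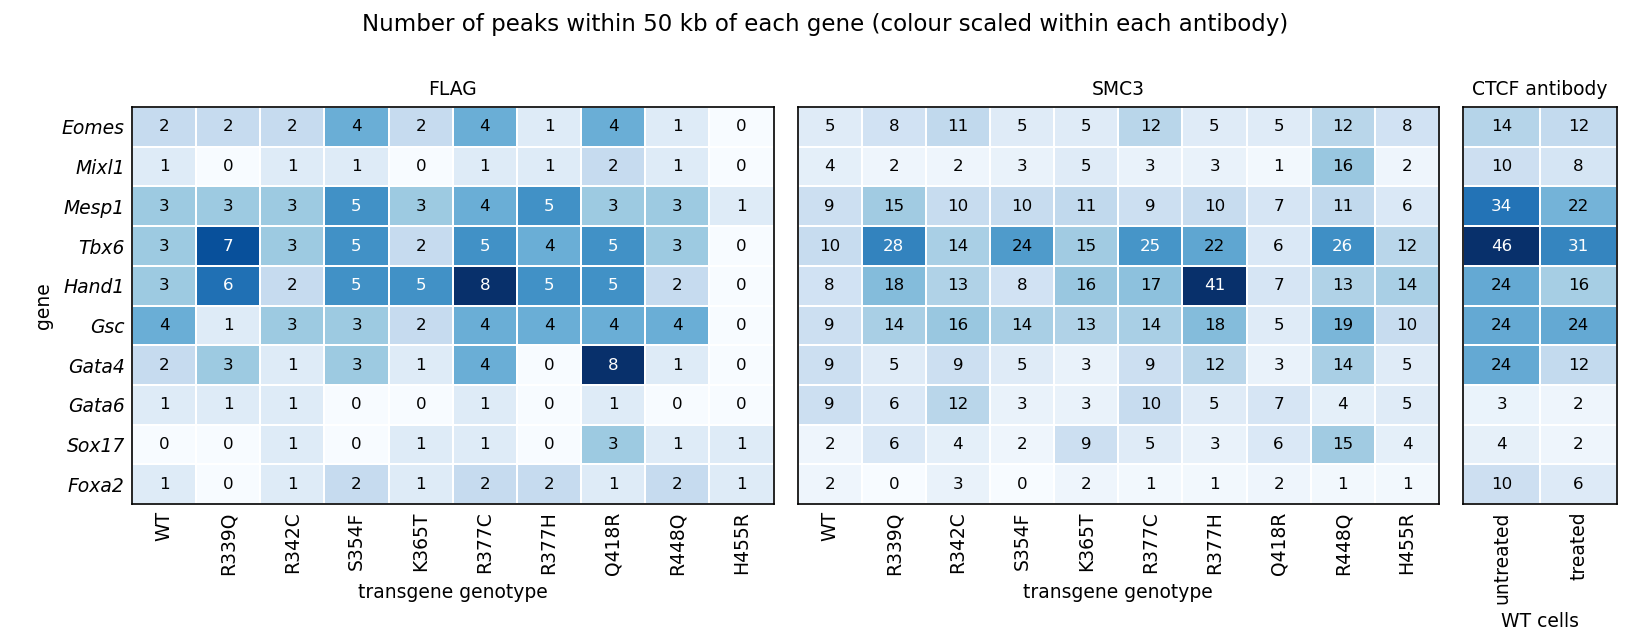
Number of peaks within 50 kb of each of the 10 genes (rows) in each FLAG, SMC3 and CTCF antibody list (columns), with the count printed in each cell and the colour scaled within each antibody. Sox17 has 0 WT FLAG peaks, H455R has FLAG peaks at 3 genes only, and Hand1 has 41 SMC3 peaks in R377H against 18 or fewer in any other genotype.

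The plot of peak counts shows the 10 genes side by side. H455R had FLAG peaks at 3 of 10 genes, Mesp1, Sox17 and Foxa2, with 1 peak each (20.1% of all protein-coding genes have one). At the other end R342C, R377C and Q418R had FLAG peaks at 10 of 10 genes (62.7%, 74.2% and 76.2%). In between, R448Q had them at 9 (64.7%), S354F and K365T at 8 (73.9% and 57.6%), and R339Q and R377H at 7 (63.1% and 61.2%). Q418R gave 36 peaks near the genes and R377C 34, against 20 in WT. These were 0.119%, 0.112% and 0.13% of their lists, so the higher counts go with longer lists.

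Cohesin was present near nearly all of the genes in every genotype. SMC3 peaks lay within 50 kb of 10 of 10 genes in WT (80.2% of all protein-coding genes), R342C (83.9%), K365T (80.7%), R377C (80.1%), R377H (81.7%), Q418R (71.1%), R448Q (85.5%) and H455R (80%). In R339Q (77.6%) and S354F (77.4%) they lay near 9 of 10, and the gene without one was Foxa2 in both. CTCF antibody peaks lay near 10 of 10 genes in untreated (90.1%) and treated WT cells (88.6%). These counts are at or near their ceiling and say little about the 10 genes, so the numbers of peaks and the single sites are described below.

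Each mutant was then compared with WT at the 20 WT FLAG sites, to ask where a change in the DNA-binding domain leaves the transgene protein off a site. R377C was found at 19 of 20 (95%, 75.1 to 99.9), where it kept 89.6% of WT sites genome-wide. S354F was found at 18 (90%, 68.3 to 98.8; genome 86.2%). R342C and R377H were each found at 16 (80%, 56.3 to 94.3; genome 72.2% and 71.8%). The order of the mutants depends on the overlap asked for: with a reciprocal overlap of 50%, R377C was found at 35% of the sites and R448Q at 70%.

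R448Q was found at 15 of 20 (75%, 50.9 to 91.3; genome 75.2%). R339Q and K365T were each found at 13 (65%, 40.8 to 84.6; genome 53.1% and 52.1%). Q418R was found at 11 (55%, 31.5 to 76.9; genome 59.2%), and H455R at 1 (5%, 0.127 to 24.9; genome 10.5%). The interval near the 10 genes held the genome-wide share in all 9 mutants, so 20 sites do not separate these genes from the genome in any mutant.

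**Figure D2:**
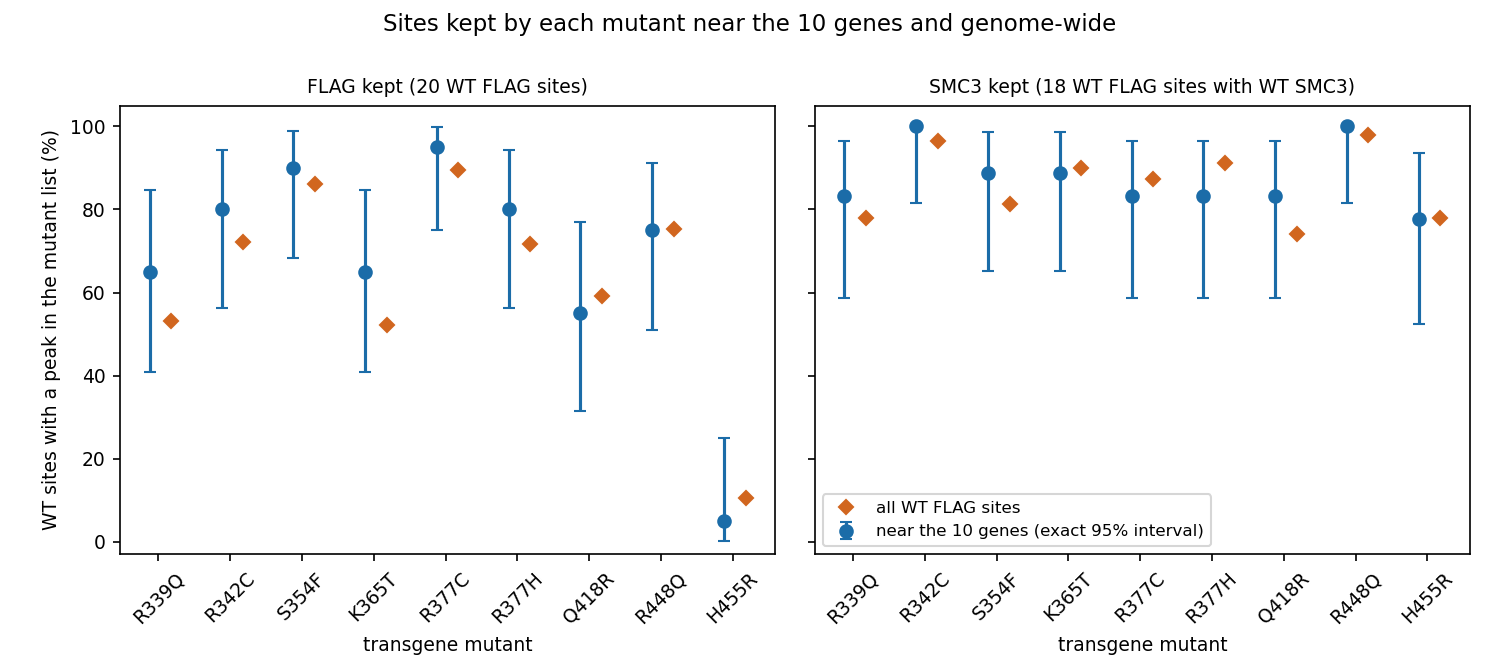
Share of WT FLAG sites with a FLAG peak (left, 20 sites) and share of WT FLAG sites with WT SMC3 that keep an SMC3 peak (right, 18 sites) in each mutant, in percent. Circles with exact 95% intervals are sites near the 10 genes and diamonds are all WT FLAG sites of the genome, and every diamond lies within the interval beside it.

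Site by site, 8 of the 20 were present in 8 of 9 mutants or more (31.2% of WT sites genome-wide) and none was present in all 9. Sites present in at least 6 mutants numbered 12 (60.5% genome-wide). Of the 8 sites that lacked a single mutant, 7 lacked H455R and 1 lacked R339Q. The last was the Foxa2 site, which was also the only one of the 20 with a peak in H455R. The 10 sites with the higher WT percentiles, 63 or more, were present in a mean of 6.9 mutants (range 4 to 8) and the other 10 in a mean of 5.3 (range 0 to 8), so the ranges overlap.

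**Figure D3:**
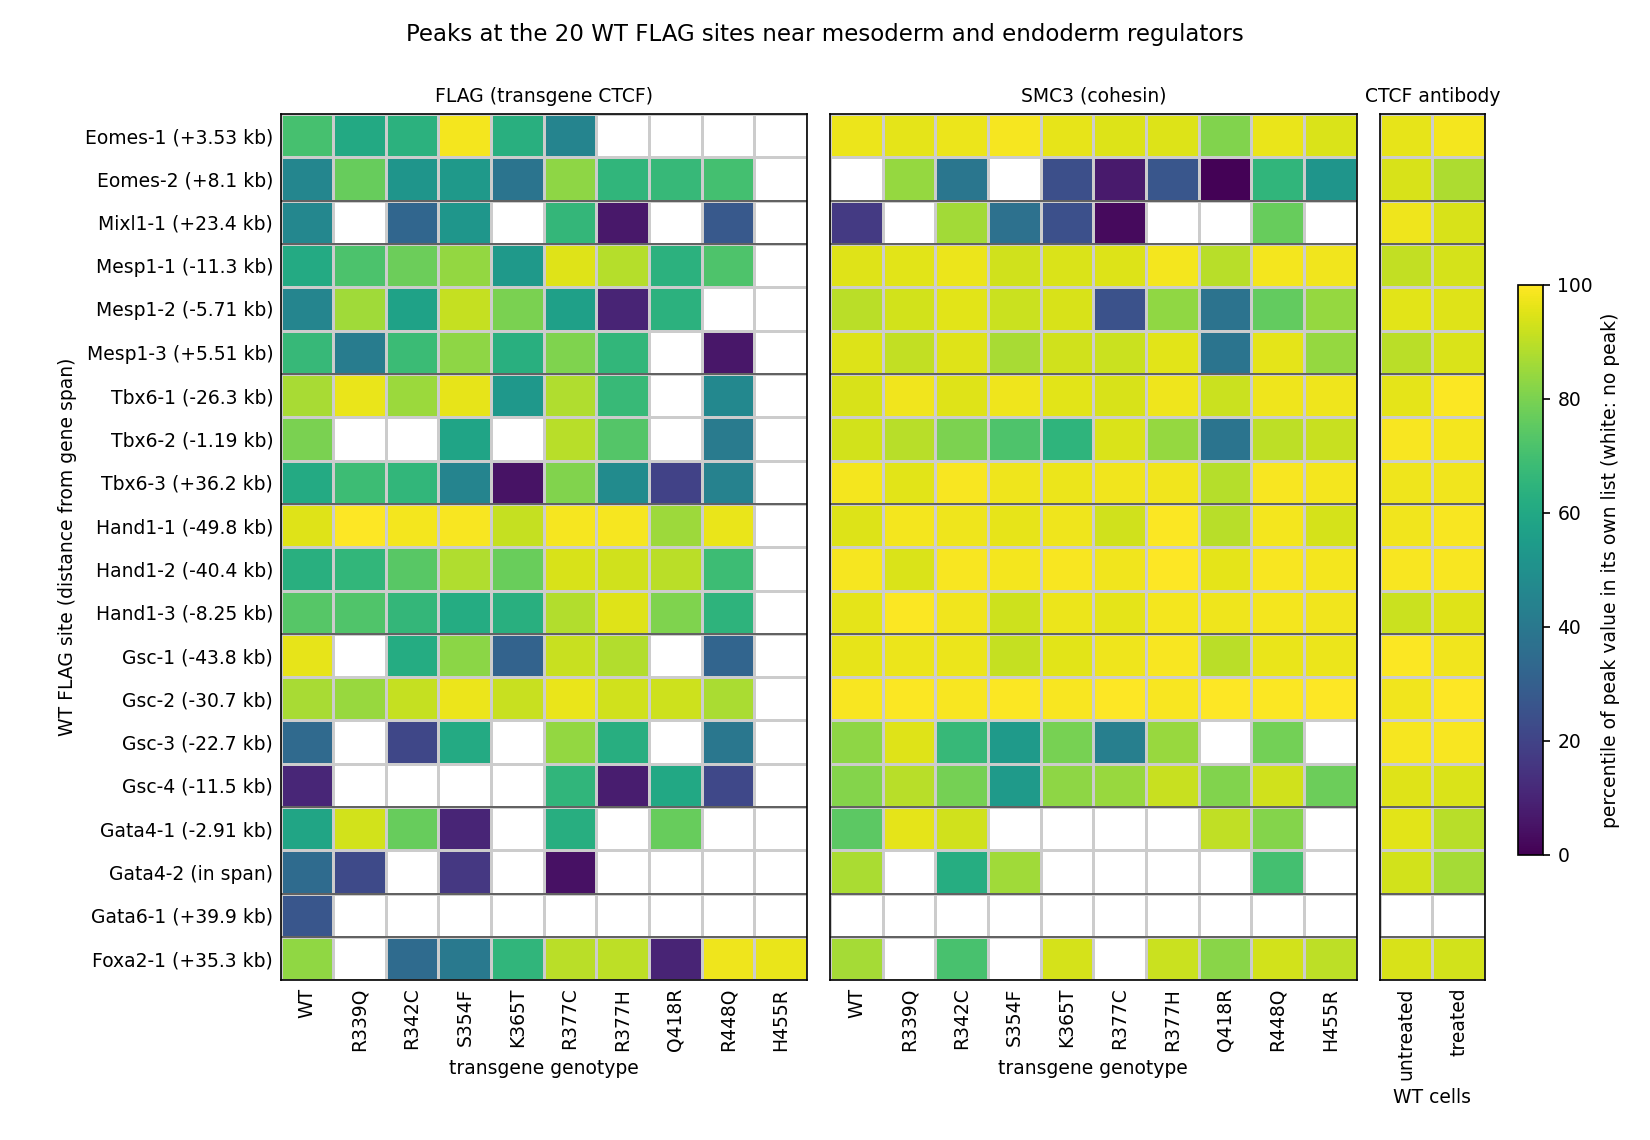
Peaks at the 20 WT FLAG sites (rows, with the distance from the gene's span, negative before its start in genome coordinates) in the FLAG and SMC3 lists of the 10 genotypes and the 2 CTCF antibody lists (columns). Colour gives the percentile of the peak in its own list, and white means no peak. The H455R column of FLAG is white except at Foxa2, the SMC3 rows of Hand1, Tbx6 and Mesp1 are filled in all genotypes, and the Gata6 row is white everywhere except WT FLAG.

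The map of the 20 sites is followed here gene by gene, beginning with the factors of the primitive streak. Eomes, a T-box factor needed for both mesoderm and definitive endoderm, has a pair of WT FLAG sites after its 3′ end with 4.03 kb between them. The first, 3.53 kb from the gene (chr9:118489663-118490208, WT percentile 70.4), is the one whose sequence at Gm33460 is printed above. Its FLAG percentile was 98.1 in S354F, 63.9 in R342C, 63.2 in K365T, 60.5 in R339Q and 45.1 in R377C, and R377H, Q418R, R448Q and H455R had no peak. The second site, 8.1 kb from the gene (chr9:118494236-118494414, WT percentile 46), had a peak in 8 mutants, from percentile 38.5 in K365T to 83.1 in R377C, and lacked H455R only. The first site thus lacked R377H, Q418R and R448Q in addition to H455R, which was missing at both. At the first, SMC3 was strong in all 10 genotypes (percentiles 81.2 to 98.8), including the 4 mutants without FLAG. At the second, WT and S354F had no SMC3 peak and the other genotypes had SMC3 at percentiles from 0.489 (Q418R) to 84.1 (R339Q).

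Mixl1, a homeobox factor of the primitive streak, had a single WT FLAG site, 23.4 kb away and nearer to Acbd3 (chr1:180720470-180720584, WT percentile 46.2). R342C, S354F, R377C, R377H and R448Q had a peak there, at percentiles from 6.25 in R377H to 66.1 in R377C. R339Q, K365T, Q418R and H455R had none. SMC3 was missing in R339Q, R377H, Q418R and H455R, so R377H had FLAG without SMC3 and K365T SMC3 (percentile 24.6) without FLAG. SMC3 was weak in WT (percentile 16.9), while both CTCF antibody peaks there were strong (97.4 untreated, 93.9 treated).

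Gsc, a homeobox factor of the organizer, had the most WT FLAG sites, 4, and 11.6% of protein-coding genes have as many or more. All lie beyond its 3′ end, with no other protein-coding gene in the window. The farthest, 43.8 kb away (chr12:104427025-104427368), was the strongest of all 20 in WT (percentile 96.2), yet R339Q, Q418R and H455R had no peak there. The site 30.7 kb away (chr12:104439980-104440471, WT percentile 86.9) was present in every mutant but H455R, at percentiles from 84.7 to 97.

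The remaining Gsc sites were weaker. The site 22.7 kb away (chr12:104448132-104448467, WT percentile 34.1) lacked R339Q, K365T, Q418R and H455R. The site 11.5 kb away (chr12:104459452-104459727) was the weakest of the 20 in WT (percentile 10.7) and lacked R339Q, R342C, S354F, K365T and H455R, but Q418R (59.8) and R377C (65.6) had it. R339Q therefore held 1 of the 4 Gsc sites and K365T 2, while R377C, R377H and R448Q held all 4. SMC3 at the 30.7 kb site was at percentiles from 99 to 99.9 in all 10 genotypes, H455R (99.8) included.

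Mesp1, a bHLH factor of early cardiac mesoderm, lies between Wdr93 and Mesp2. Its 3 WT FLAG sites were 11.3 kb away inside Wdr93 (chr7:79780579-79780919, WT percentile 60.9), 5.71 kb away (chr7:79786305-79786532, 45.5) and 5.51 kb away on the Mesp2 side, before the Mesp1 start (chr7:79799103-79799441, 67). H455R lacked all 3, R448Q also lacked the second and Q418R the third. All other mutants had all 3. All 3 sites had SMC3 in every genotype, lowest in R377C (25.3) and Q418R (37.9) at the second site and in Q418R (38.6) at the third.

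Tbx6, a T-box factor of paraxial mesoderm, lies in a gene-dense stretch with 7 other protein-coding genes in its window. One WT FLAG site lies 1.19 kb before its start, inside Ypel3 (chr7:126779990-126780296, WT percentile 79.9). It was strong in WT, but R339Q, R342C, K365T, Q418R and H455R had no peak, and S354F (58.3), R377C (89.3), R377H (73.2) and R448Q (41.3) did. SMC3 was present there in all 10 genotypes, lowest in Q418R (percentile 38.6) and highest in R377C (94.4). The site 26.3 kb before the gene (chr7:126754706-126755179, WT percentile 87.1) lacked Q418R and H455R only, and the site 36.2 kb beyond it inside Tlcd3b (chr7:126821796-126822240, 60.6) lacked H455R only. SMC3 at these last sites lay at percentiles from 88.9 to 99.2 in all genotypes.

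Hand1, a bHLH factor of lateral and extraembryonic mesoderm, had 3 WT FLAG sites, each of which lacked H455R and no other mutant. The farthest, 49.8 kb away inside Galnt10 (chr11:57778373-57778882), was at percentile 95 in WT and from 85.5 (Q418R) to 99.9 (R339Q) in the 8 mutants. The others lay 40.4 kb away beside Galnt10 (chr11:57787954-57788286, WT percentile 63) and 8.25 kb away (chr11:57819976-57820465, 73.8), and in the 8 mutants their percentiles ran from 61.4 (S354F at the third site) to 95.2 (R377H at the third site). In H455R, with no FLAG peak at any of them, the SMC3 percentiles were 93.5, 98.4 and 97.9. No other gene with more than 1 site had all of its sites in the same 8 mutants. The peaks of R342C and R448Q at the farthest site end just outside the 50 kb window, so the counts per gene leave them out.

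The number of SMC3 peaks around Hand1 was uneven between genotypes. R377H had 41 SMC3 peaks within 50 kb, against 8 in WT and S354F, 7 in Q418R, 13 in R342C and R448Q, 14 in H455R, 16 in K365T, 17 in R377C and 18 in R339Q. The excess over the next genotype was 23 peaks, and 143 of 21887 protein-coding genes (0.653%) have one as large or larger in R377H. Hand1 and R377H were singled out after these counts were seen, so the 0.653% describes a chosen case and tests nothing. Of the 41, 31 lay before the span and 17 overlapped no SMC3 peak of any other genotype, with a median percentile of 36, against 65.8 for the 24 shared ones. Many of the additional peaks are therefore weak. With the 42030 strongest SMC3 peaks of each list R377H had 16 and the next genotype, H455R, 9. With the upper 50% of each list R377H had 23 and R377C 12. R377H remained the highest in both. The R377H list is the second longest SMC3 list, with 120444 peaks, and the part of list length in this result was tested only by these alternatives.

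**Figure D4:**
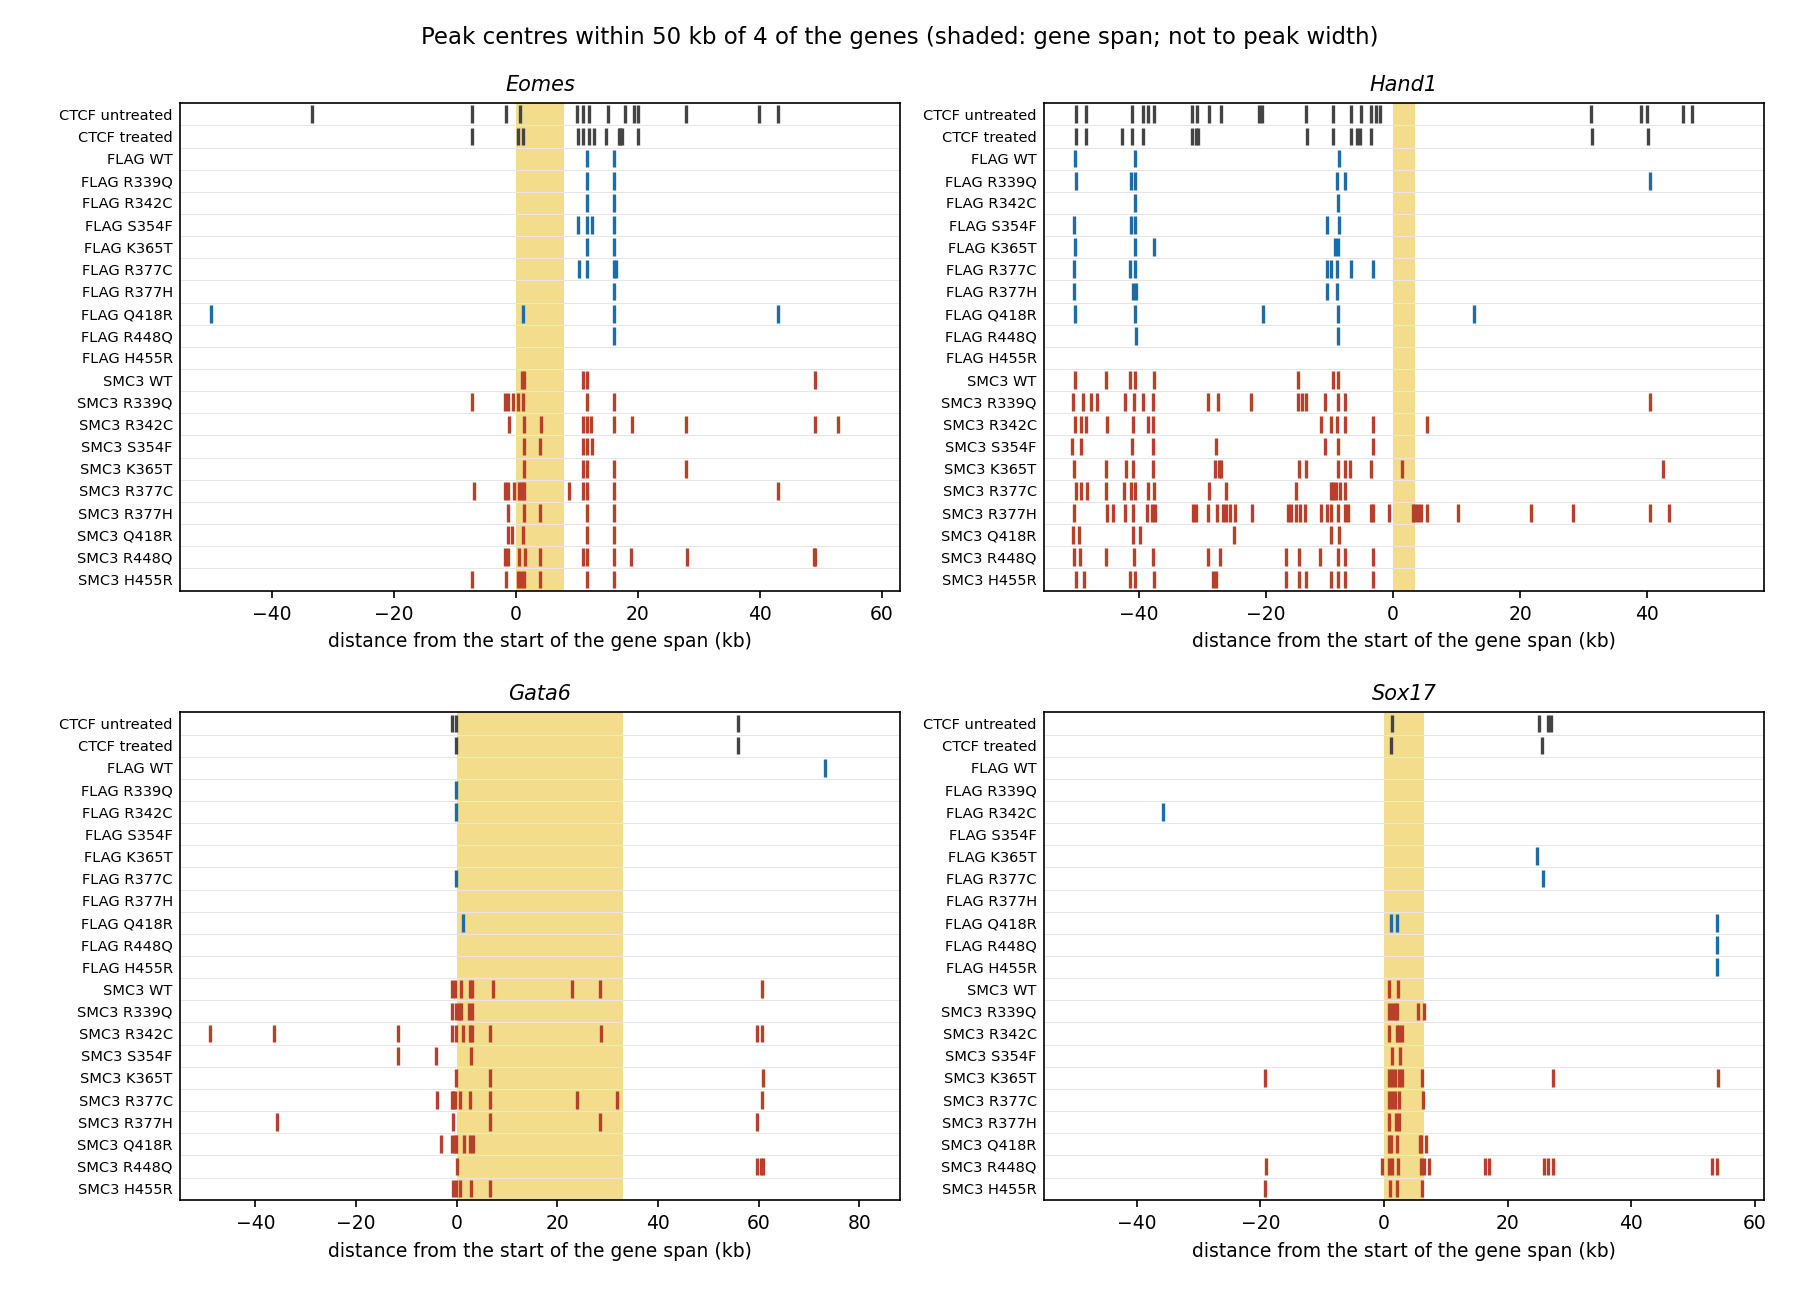
Peak centres (vertical strokes) in the 22 lists around Eomes, Hand1, Gata6 and Sox17, by distance in kb from the start of the gene's span in genome coordinates, with the span shaded. The 41 SMC3 peaks of R377H stand out at Hand1, and Q418R alone has FLAG peaks inside Eomes and Sox17. Gata6 has 3 untreated CTCF antibody peaks in its window, and 6 of its 9 WT SMC3 peaks lie inside the span. That share differs between genotypes and is 1 of 3 in S354F.

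The endoderm factors, 4 of the 10 genes, had 4 of the 20 WT FLAG sites, and the 6 streak and mesoderm factors had 16. Protein-coding genes had a mean of 1.48 WT FLAG sites within 50 kb. The grouping is coarse, as Eomes is also needed for endoderm and Gata4 acts in heart, and a difference between the groups was not tested. Gata4, a zinc finger factor of heart and gut, had a WT FLAG site 2.91 kb outside its span, between Neil2 and Gata4 (chr14:63195902-63196007, WT percentile 58.7), and another inside its span (chr14:63207265-63207393, 34.6). The first had peaks in R339Q (percentile 93.1), R342C (76.8), S354F (10.2), R377C (62.5) and Q418R (76.7). The second had peaks in R339Q (22.5), S354F (16.4) and R377C (4.51) only. R377H and H455R had no FLAG peak anywhere within 50 kb of Gata4. SMC3 was also missing at both sites in K365T, R377C, R377H and H455R, and S354F lacked it at the first and R339Q and Q418R at the second. Both CTCF antibody peaks of both sites were in the upper part of their lists (percentiles 86.5 to 95.5).

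Gata6, a zinc finger factor of primitive endoderm, had 1 WT FLAG site, 39.9 kb away and weak (chromosome 18, 11125498 to 11125672, WT percentile 26.8). No mutant had it (4.79% of WT sites are found in no mutant), and neither CTCF antibody list nor any SMC3 list had a peak there. Gata6 nevertheless had 9 SMC3 peaks in WT, 0 of them at a WT FLAG site, 2 at a CTCF antibody peak only and 7 away from both. In the mutants the number ran from 3 (S354F and K365T) to 12 (R342C). The window held 3 untreated and 2 treated CTCF antibody peaks, where the median protein-coding gene has 16 and 11. Of the 10 genes, Gata6 had the largest number of WT SMC3 peaks away from CTCF.

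Sox17, an HMG-box factor of definitive endoderm, had no WT FLAG site. R339Q, S354F and R377H had no FLAG peak there either, R342C, K365T, R377C, R448Q and H455R had 1 each and Q418R had 3. Its SMC3 peaks numbered 2 in WT and from 2 (S354F) to 15 (R448Q, the longest list) in the mutants. CTCF antibody peaks numbered 4 untreated and 2 treated.

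Foxa2, a forkhead pioneer factor of endoderm and the node, had 1 WT FLAG site 35.3 kb before its start (chr2:148082262-148082631, WT percentile 83.3). It was strong in R448Q (97.5), H455R (96.5), R377H (90.2) and R377C (89.7), intermediate in K365T (65.3), S354F (40.4) and R342C (34.5), weak in Q418R (9.98) and missing in R339Q. At the other 19 WT FLAG sites H455R had no peak. SMC3 at the site was missing in R339Q, S354F and R377C and otherwise at percentiles from 70.8 to 93.7. Foxa2 had few SMC3 peaks in all, 2 in WT, 0 in R339Q and S354F and at most 3 (R342C).

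For cohesin, the 18 sites that had both FLAG and SMC3 in WT were examined in each mutant. R342C and R448Q kept SMC3 at 18 of 18 (81.5 to 100; genome 96.6% and 97.9%). S354F and K365T kept it at 16 (88.9%, 65.3 to 98.6; genome 81.4% and 89.9%). R339Q, R377C, R377H and Q418R kept it at 15 (83.3%, 58.6 to 96.4; genome 78%, 87.3%, 91.3% and 74.1%), and H455R at 14 (77.8%, 52.4 to 93.6; genome 77.9%). Counting all genotypes, 13 of the 20 sites had SMC3 in all 10: the first Eomes site, the 3 sites each of Mesp1, Tbx6 and Hand1, and all Gsc sites but the one 22.7 kb away. The genome-wide share of WT FLAG sites with SMC3 in all 10 genotypes was not computed, so this count does not set these genes apart.

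SMC3 stayed at many sites without FLAG. In H455R it was present at 13 of the 17 sites where WT had both and H455R had no FLAG peak (76.2% genome-wide). In R448Q it was present at 4 of 4 such sites (91.7%), in R342C at 3 of 3 (87.6%), in K365T at 4 of 6 (77.9%), in R339Q at 4 of 6 (55.8%) and in Q418R at 5 of 8 (46.7%). R377H had it at 1 of 3 (75.4%) and S354F at 1 of 1 (28.4%), and R377C lacked no FLAG peak at these 18 (63.6%). Where FLAG was kept, SMC3 was kept at 12 of 12 sites in K365T (98.4%), 15 of 15 in R342C (98.7%), 14 of 14 in R448Q (99.3%), 10 of 10 in Q418R (89.1%) and 1 of 1 in H455R (93.3%). It was kept at 14 of 15 in R377H (95.5%), 11 of 12 in R339Q (93%), 15 of 17 in S354F (84.4%) and 15 of 18 in R377C (88%). Peak names of the SMC3 lists include a tag that no source explains. It is b2 in R339Q, b3 in Q418R, a mix of b1 and b2 in S354F and R377C, and b1 in every other genotype. The tag's part in these counts was not tested.

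Of the 67 WT SMC3 peaks near the 10 genes, 18 (26.9%) lay at a WT FLAG site, 23 (34.3%) at a CTCF antibody peak only and 26 (38.8%) away from both, against 17.2%, 30.9% and 51.9% genome-wide. Those away from both were kept least by Q418R, 4 of 26 (14.5% genome-wide), the shortest SMC3 list, and most by R448Q, 16 of 26 (70.1%), the longest. At CTCF antibody peaks without WT FLAG, R342C and R448Q each kept 17 of 23 (genome 75.1% and 79.7%). R377C kept 16 (69.6%, genome 61%), K365T 15 (65.2%, genome 57.6%) and R377H 14 (60.9%, genome 66.7%). H455R kept 12 (52.2%, genome 55.1%), S354F and Q418R 10 each (43.5%, genome 59.7% and 28.7%) and R339Q 8 (34.8%, genome 52.9%).

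The CTCF antibody does not distinguish the transgene protein from endogenous CTCF. It gave 193 peaks near the genes in untreated WT cells and 135 in treated WT cells. The whole lists held 175815 and 116973 peaks, so the peaks near the genes made up 0.11% and 0.115% of them. Of the untreated peaks 116 (60.1%, 52.8 to 67.1) overlapped a treated peak, against 56.9% genome-wide. Strong peaks recurred and weak ones mostly did not: the share was 81 of 92 in the upper 50% of the untreated list by value (87.8% genome-wide) and 35 of 101 in the lower 50% (25.1%). By gene it was highest at Mixl1 (8 of 10) and Gsc (19 of 24) and lowest at Gata4 (11 of 24), Eomes (7 of 14) and Sox17 (2 of 4). In the other direction, 119 of 135 treated peaks (88.1%, 81.5 to 93.1) overlapped an untreated peak (91.7% genome-wide), and Gsc held 8 of the 16 that did not, with 16 of its 24 treated peaks found in untreated cells. Of the untreated peaks, 46 (23.8%, 18 to 30.5) overlapped a FLAG peak of some genotype (21.2% genome-wide), 40 of them in the upper 50%.

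Mutant FLAG peaks that overlapped no WT FLAG peak formed 55 separate sites near the 10 genes. Of these, 8 were found in at least 3 mutants (12.4% of such sites genome-wide). The share of a mutant's FLAG peaks that lay outside the WT list was 69.4% near the genes in Q418R (70.2% genome-wide), 44.1% in R377C (55.9%), 43.5% in R339Q (57.4%) and 35.7% in S354F (45.8%). It was 27.3% in R377H (33.6%), 23.5% in K365T (39%), 22.2% in R448Q (40.6%) and 16.7% in R342C (33%), and in H455R 2 of 3 peaks (58.1%). Peaks outside the WT list were thus common over the whole genome in every mutant, and the sites described next are examples. Inside Mesp1 itself, a site (chr7:79792631-79793054) was present in S354F, R377C, R377H, R448Q and H455R, with a percentile of 51.1 in R377C, and had SMC3 in 9 genotypes. It overlapped strong CTCF antibody peaks (99.3 untreated, 95.8 treated), so a CTCF site at Mesp1 was outside the WT FLAG list but not outside the WT CTCF lists. A site 22 kb before Tbx6 (chr7:126758729-126759505) was present in R339Q, R342C, S354F, R377C and R377H (percentile 76.1 in R339Q). It had SMC3 in 3 genotypes.

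At the other genes, a site inside Gata4 (chr14:63255500-63256511) was present in S354F, R377C, Q418R and R448Q (percentile 89.5 in Q418R), and a site 1.56 kb before the Foxa2 start (chr2:148048535-148048871) in S354F, R377C, R377H and R448Q (67.1 in R377C). The Gata4 site had SMC3 in 6 genotypes. The Foxa2 site had it in 3, none of which had FLAG there. A site 10.2 kb from Hand1 (chr11:57818211-57818505) was present in S354F, R377C and R377H (72.5 in R377C) and had SMC3 in 2 genotypes. The site at the start of the Gata6 span (chromosome 18, 11052153 to 11052552), where Gata6os overlaps, was present in R339Q, R342C and R377C (41.2 in R377C) and had SMC3 in 8 genotypes. The site 47.3 kb from Sox17 (chr1:4544707-4544991) was present in Q418R, R448Q and H455R, had SMC3 in 2 genotypes and was the only 1 of these sites without a CTCF antibody peak.

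Most FLAG peaks near the genes that were found in 1 list alone belonged to Q418R. Of the 36 Q418R FLAG peaks near the genes 22 (61.1%) overlapped no peak of any other FLAG list, against 54.6% of all its peaks genome-wide, and the other mutants had 18 such peaks together (40 in all with Q418R), at most 7 in R339Q. The following Q418R sites were chosen after their values were seen. Inside Sox17 a Q418R peak of 1394 bp (chr1:4491405-4492798) stood at percentile 94, with both CTCF antibody peaks (86.4 and 72.7) and SMC3 in all 10 genotypes. Inside Eomes a peak (chr9:118478952-118479667) stood at percentile 83.9, also with both CTCF antibody peaks (89.6 and 74.3) and SMC3 in all 10 genotypes.

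These last places thus had SMC3 and CTCF antibody peaks in WT cells, while of the 10 FLAG lists only that of Q418R had a peak there. The WT SMC3 peaks were not strong, at percentiles 33.7 and 59.3 inside Eomes and 56.4 inside Sox17. Other Q418R peaks had no such company: one inside Gata4 (chr14:63200541-63201289, percentile 77.5) and one in Sap30l near Hand1 (chr11:57807970-57808378, 84.7) had no SMC3 peak in any genotype and only a weak untreated CTCF antibody peak (percentile 17.6 each). Of the 22 sites found only in Q418R, 10 had no CTCF antibody peak (53% of all such Q418R peaks genome-wide), 11 no SMC3 peak (55.8%) and 8 neither (35.9%), so these counts were near the background. The Q418R list is long, with 30332 peaks, and among the 3855 strongest peaks of each FLAG list 2 such sites were left near the genes, against 2 in H455R and 1 in R339Q and S354F each.

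Of 30 other genes of germ layer specification 23 had a WT FLAG site within 50 kb (63.3% of protein-coding genes), 58 sites in all, of which 3 are shared with the 10 genes. R377C was found at 56 of the 58 (96.6%, 88.1 to 99.6), S354F at 51 (87.9%, 76.7 to 95), R342C and R377H at 46 each (79.3%, 66.6 to 88.8) and R448Q at 44 (75.9%, 62.8 to 86.1). R339Q was found at 37 (63.8%, 50.1 to 76), Q418R at 35 (60.3%, 46.6 to 73), K365T at 32 (55.2%, 41.5 to 68.3) and H455R at 5 (8.62%, 2.86 to 19). In 4 of the 30, Pdgfra, Foxa1, Hnf4a and Tbx20, a WT FLAG site lay within 1 kb of the span. Pdgfra is a mesoderm receptor tyrosine kinase, Foxa1 and Hnf4a are endoderm factors, and Tbx20 is a T-box factor of the heart. Pdgfra had 3 such sites and the others 1 each. The share of all protein-coding genes with a site this close was not computed, so 4 of 30 cannot be called few or many.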

How the data were processed

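The analysis rests on 22 deposited peak lists, 1 for each group of 2 replicates pooled, taken to groups by the labels. FLAG in untreated WT cells and IgG were not analysed here. The submitters' processing notes name mm10 and the tools MACS2, Bowtie2, Trim Galore and deepTools, whose versions are not given in the sources. Each deposited peak carries a score from the authors' caller. Which measure it is was not stated, so it was ranked within its own list only. Intervals listed once per summit in the FLAG lists were merged, with the highest score kept. Between 1.3% and 5.26% of the running peak numbers in the names are absent from a list, for a reason that is not stated. Names inside some lists carry other replicate numbers than the list's title, so list contents rest on the titles.

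Gene spans are those of RefSeq on GRCm38.p6, where all 10 symbols matched. A site is a merged peak within 50 kb of a span, and lists were matched by an overlap of at least 1 bp (Python 3.11.15, numpy 2.4.6, pandas 2.3.3, scipy 1.17.1, figures with matplotlib 3.10.9). The overlap code was tested on simulated lists and against bedtools 2.31.1. Named sites are all WT FLAG sites and, per gene, the strongest site outside the WT list in at least 3 mutants. The sites named for Q418R alone fall outside this rule and were chosen after their values were seen. The members and the gene lists were chosen with earlier results of these data known. With 1 pooled list per group no test was made.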

Additional observations from a re-analysis of the deposited data

How the results depend on the processing

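No paired analysis was possible because each list pools both replicates; for the same reason no replicate could be left out. Alternatives were a reciprocal overlap of 50%, a match within 500 bp, the upper 50% of each list, equal numbers of top peaks (3855 FLAG, 42030 SMC3, 116973 CTCF antibody), windows of 10 and 100 kb and, chosen after seeing the data, only those WT FLAG sites that the treated CTCF antibody list holds. Of 127 alternative values 97 stayed within the exact interval of the reported share, or within 1.5 times the reported count, and 30 did not. Several alternatives use fewer sites or peaks, and why values moved was not tested. The 20 WT FLAG sites became 13 in the upper 50%, 6 with equal numbers, 8 within 10 kb and 33 within 100 kb. With equal numbers, FLAG was kept at 33.3% of the 6 sites in K365T, 16.7% in Q418R, 50% in R342C, R448Q and S354F and 100% in R377C, and SMC3 at 100% in H455R, K365T, Q418R and R377H. Within 10 kb FLAG was kept at 0% of 8 sites in H455R, 50% in R448Q, 87.5% in R339Q and 100% in R377C and S354F. In the upper 50% R448Q kept 46.2%. Under the reciprocal overlap, which depends on peak width, FLAG was kept at 20% of the 20 sites in R339Q and 35% in R377C. Only 9 sites then counted as having WT SMC3, against 18 in the main result. Of these 9, SMC3 was kept at 55.6% in R339Q and S354F, 66.7% in R342C and 44.4% in R448Q. At the 19 WT FLAG sites that the treated CTCF antibody list holds, R377C kept 100%. The share of untreated CTCF antibody peaks with a treated peak was 76.2% with equal numbers, 72% within 500 bp and 33.2% under the reciprocal overlap. The 22 peaks found in Q418R alone became 20 with a match within 500 bp, 12 in the upper 50% and 2 with equal numbers. Depth per list is unknown, and a peak below a list's cutoff cannot be told apart from a site left unbound.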
